A study of Mus musculus with 12 samples.

Results

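Structural RNAs are the RNAs that work as RNA rather than as templates for protein, and the deposited table names their genomic copies by repeat family. The sites described here are the intervals of that table whose family name contains rRNA, scRNA, srpRNA, snRNA or tRNA, or is exactly RNA. They number 1193 of the 178431 usable intervals. Of these, 797 were named scRNA, 161 rRNA, 70 snRNA, 52 tRNA, 11 RNA and 9 srpRNA. The other 93 carried 1 of 32 joined names such as scRNA;Satellite and were kept apart. Together the 1193 sites held 11.2% of all counts, with 8.25% to 15.1% in single libraries. No count at all fell on 216 of them.

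Every mouse carried RiboTag, a form of the ribosomal protein gene Rpl22 that gains an HA epitope after Cre recombination, and Cre driven by the promoter of advillin, a gene of peripheral sensory neurons. The tag is therefore limited to cells in which this promoter has been active, and the other cells of the ganglion keep untagged ribosomes. Dorsal root ganglia L4 to L6 were collected 3 days after a sciatic nerve crush or from naive tissue, and each replicate pooled ganglia of 4 mice. RNA was taken from the HA immunoprecipitate (IP) or from the ganglion homogenate (input), so that naive IP, crushed IP (called IP injured), naive input and crushed input (input injured) had 3 libraries each.

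Ribosomal RNA (rRNA) forms the core of the ribosome, and its 18S molecule belongs to the small subunit. The small cytoplasmic RNAs (scRNA) include the neuronal dendritic RNA BC1, the Y RNAs, which bind the Ro protein, and the rodent 4.5S RNA. The 7SL RNA (srpRNA) is the scaffold of the signal recognition particle, which brings ribosomes that make secreted proteins to the endoplasmic reticulum. Small nuclear RNAs (snRNA) build the spliceosome, transfer RNAs (tRNA) carry amino acids to the ribosome, and 7SK, the member of the family named RNA, holds the elongation factor P-TEFb in an inactive complex. The libraries were made with a kit that primes on runs of A, whereas most of these RNAs carry no long poly(A) tail. A value below is thus a count of primed reads at a site, and how it relates to the number of molecules was not measured.

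The sequences below show what such sites look like. The first is a site of the scRNA family on chromosome 4, inside the window before the start of Gm42324 (GRCm38.p6, chr4:133596006-133596136, minus strand), where the capitals mark the deposited site. The next is the Mir6240 hairpin (chr5:114851948-114852064, plus strand), whose capitals mark a deposited rRNA site. The last is the start of Bc1 (chr7:144914470-144914519, plus strand), with capitals on the longest run it shares with the scRNA copy on chromosome 4. All were taken from RefSeq tables of that build.
Gm42324 window: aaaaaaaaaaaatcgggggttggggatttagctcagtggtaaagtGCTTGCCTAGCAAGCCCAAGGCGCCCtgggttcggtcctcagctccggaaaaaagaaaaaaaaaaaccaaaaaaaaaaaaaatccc
Mir6240: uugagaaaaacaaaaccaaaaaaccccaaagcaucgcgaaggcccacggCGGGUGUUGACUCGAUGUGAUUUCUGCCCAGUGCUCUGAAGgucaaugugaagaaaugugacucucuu
Bc1: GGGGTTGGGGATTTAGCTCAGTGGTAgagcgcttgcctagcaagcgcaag

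The copy on chromosome 4 matched Bc1 at 47 of its first 50 bases without a gap, and the longest unbroken match was 26 bases. It is followed on the RNA strand by runs of A. Its 127 counts were 5, 5 and 2 in IP naive, 6, 2 and 7 in IP injured, 10, 15 and 31 in input naive and 7, 15 and 22 in input injured. The rRNA site in Mir6240 had 81 counts, with 12, 4 and 16 in IP naive, 5, 7 and 8 in IP injured, 4, 7 and 6 in input naive and 3, 2 and 7 in input injured. Every IP naive library was below every input naive library at the Bc1-like site, and the groups overlapped at the Mir6240 site.

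Library totals ran from 10045178 to 18687123 counts, and levels below are given as CPM, counts scaled to 1 common library total. Of 35 tested marker genes of glia, macrophages, fibroblasts, vessels and blood, 28 were lower in IP than in input in naive ganglia and 26 in injured ganglia, with medians of -3.10 and -2.95 on the log2 scale. The summed level of these markers in IP was 0.160 to 0.326 of that in the input library of the same number. For numbers 1 to 3 it was 0.160, 0.290 and 0.211 in naive and 0.191, 0.326 and 0.261 in injured ganglia. Number 2 was thus the highest in both. In single IP libraries 1 to 5 of these markers were at 0. All 6 neuron markers were detected, with a median IP to input ratio of 1.37 to 1.74. The libraries numbered 2 stood apart in both IP groups, with more scRNA and srpRNA counts and the lowest rRNA share of their group, and results that turn on them are given with and without them. In bulk tissue, fewer cells of a type and less RNA per cell cannot be told apart, and p-values here measure only the spread between pools.

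The share of counts taken by ribosomal RNA was not detectably different between IP and input. This family made up 98.9% of all structural RNA counts. In IP naive libraries the share was 12.1%, 10.2% and 15.1%, and in input naive libraries 11.5%, 10.2% and 12.7%. In injured ganglia it was 9.84%, 8.21% and 12.2% in IP and 8.26%, 9.02% and 11.02% in input. The IP and input libraries overlapped in both conditions. The family sum differed by 0.14 ± 0.20 (log2, SE) in naive and by 0.13 ± 0.20 in injured ganglia, with adjusted p of 0.683 and 0.701 (edgeR quasi-likelihood test, Benjamini-Hochberg over 180 families). Exact two-sided permutation tests of the shares gave p = 0.7 in each.

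**Figure D1:**
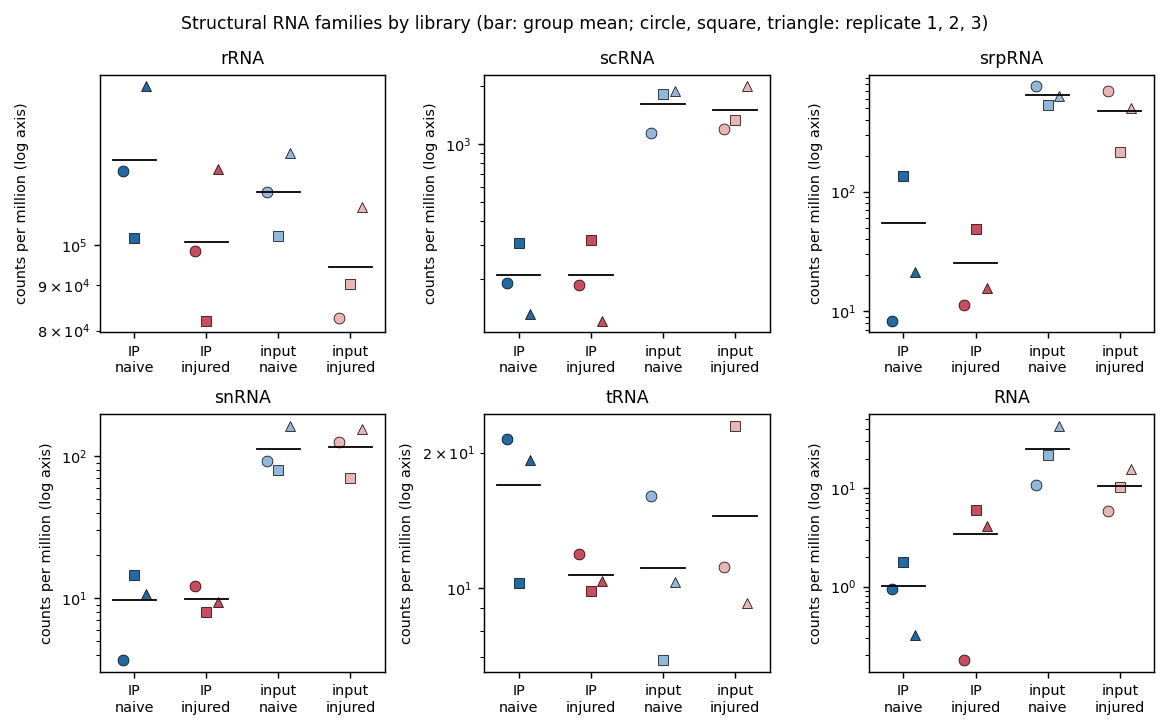
CPM (log axis) for the 6 structural RNA families in each of the 12 libraries, with 1 point per library (circle, square and triangle for replicate 1, 2 and 3), a bar at each group mean and the 4 groups side by side. The scRNA, srpRNA and snRNA points of both IP groups lie below all input points, while rRNA and tRNA overlap.

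Most rRNA counts were placed by the table at a single copy of the 18S RNA. Rn18s-rs5, listed by RefSeq as a pseudogene on chromosome 17 (39846354 to 39848202, 1849 bp, GRCm38.p6), held 4 sites with 87.2% of all rRNA counts. The sites of Rn18s-rs5 began 470, 772, 980 and 1146 bp into the gene, so that none lay near its 3′ end. The last of them alone (chr17:39847500-39847525) had 11999527 counts, 63.5% of the family. Its level was 77750, 63230 and 94350 CPM in IP naive and 63310, 66410 and 85030 in input naive. In injured ganglia it was 61420, 52640 and 78690 CPM in IP and 46990, 58980 and 74840 in input. These ranges overlapped in both conditions, with log2 differences between IP and input of 0.40 ± 0.21 (adjusted p = 0.263) and 0.36 ± 0.21 (adjusted p = 0.338). Mean CPM lay closer, at 78440 in IP and 71580 in input in naive, and at 64250 and 60270 in injured ganglia. The site fit scales library totals by TMM size factors (0.860 to 0.999 in IP, 1.06 to 1.12 in input), which CPM leave out. Those of the family fit were 0.946 to 1.06 in IP and 0.945 to 1.05 in input. On chromosome 6, 4 rRNA sites between 3200913 and 3201628 had 99605, 436349, 179936 and 9053 counts, of which the first lay close to the 99638 of the first site of Rn18s-rs5 and the next to the 457669 of its next. The treatment of reads that align to several places is not given in the sources used here, so the copy from which such reads came cannot be told.

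The second site of Rn18s-rs5, 772 bp into the gene, set the libraries numbered 2 apart from the rest of the IP. It reached 3993, 1615 and 4775 CPM in IP naive and 3039, 1345 and 3735 in IP injured. Input libraries had 1784, 1875 and 2517 CPM in naive and 1372, 1747 and 2134 in injured ganglia. In each IP group libraries 1 and 3 exceeded every input library, and library 2 was below every input library of its condition. The fitted differences of 1.03 ± 0.41 (adjusted p = 0.154) and 0.91 ± 0.41 (adjusted p = 0.204) did not pass the test.

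**Figure D2:**
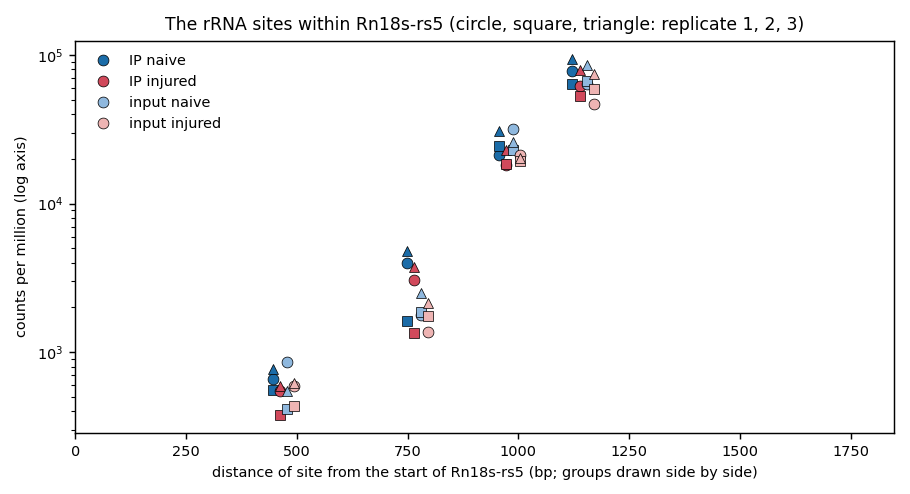
CPM (log axis) at the 4 sites of Rn18s-rs5, ordered by their distance in bp from the start of the gene, in each library. The site 1146 bp in is the highest in every library, and at the site 772 bp in the IP libraries numbered 2 (squares) lie below the input libraries of their condition.

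Across the 93 rRNA sites with enough counts to test, 85 lay above 0 in IP against input in naive ganglia, with a median of 0.67, and 68 in injured ganglia, with a median of 0.45. The medians over all 46229 tested sites were -0.14 and -0.10. All these values carry the size factors of the site fit. With RLE size factors the rRNA medians were 0.58 and 0.28, beside -0.22 and -0.26 over all sites. No rRNA site passed the test in naive ganglia, where 28 of 93 (30.1%) had an unadjusted p under 0.05, beside 24.3% of all sites. In injured ganglia 17 of 93 (18.3%) had an unadjusted p under 0.05, beside 23.1% of all sites. With no filter on low counts 22 rRNA sites were called higher in naive and 24 in injured ganglia, of 154 tested, and DESeq2 called 8 higher and 1 lower in naive and 1 higher in injured ganglia. In injured ganglia 1 site passed the test, on chromosome 16 (chr16:4590397-4590427, minus strand, outside annotated genes). Its level was 63.3, 20.2 and 43.5 CPM in IP injured and 14.7, 13.3 and 14.2 in input injured, a rise of 1.86 ± 0.47 (adjusted p = 0.0384, 3.64-fold). Its naive values, 51.5, 19.7 and 56.6 CPM in IP and 25.6, 15.3 and 18.3 in input, overlapped. The call was lost in 6 of 20 alternatives (adjusted p up to 0.165), among them RLE size factors and leaving out IP injured library 1 or 3 or any input injured library. Without the IP libraries numbered 2, 20 of 98 tested rRNA sites were called higher in IP in naive ganglia and 16 in injured ganglia. The shares of all sites called in these alternative fits are not given here. These counts can therefore not be read as particular to rRNA. With all libraries, every IP library exceeded every input library at 3 rRNA sites in naive and 1 in injured ganglia, which held for 6.66% and 10.1% of all sites.

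Among the other families, scRNA, snRNA and srpRNA were lower in IP than in input in both conditions. The 180 families served as background: 12.8% were called in naive and 20% in injured ganglia, with 8.89% and 9.44% of families lower and 3.89% and 10.6% higher in IP. The scRNA sum was 192.5, 306.9 and 132.7 CPM in IP naive against 1139, 1812 and 1880 in input naive. In injured ganglia it was 186.3, 320.2 and 122.6 CPM in IP against 1194, 1326 and 1988 in input. No IP library reached any input library. The fall was 7.60-fold in naive ganglia (log2 -2.93 ± 0.41, adjusted p = 0.00146) and 7.05-fold in injured ganglia (-2.82 ± 0.41, adjusted p = 0.000971).

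The snRNA sum was 3.68, 14.5 and 10.8 CPM in IP naive against 93.0, 79.7 and 163.9 in input naive. Injured ganglia had 12.2, 8.0 and 9.42 CPM in IP against 125.4, 69.6 and 154.7 in input. The groups did not overlap, and the fall was 11.4-fold (-3.52 ± 0.53, adjusted p = 0.00158) and 11.6-fold (-3.54 ± 0.53, adjusted p = 0.00101). The scRNA and snRNA calls held in all 25 alternatives tried with adjusted p up to 0.011. Marker genes of untagged cells had medians of -3.10 and -2.95 in the same comparisons, and the part of such cells in these results was not tested.

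The srpRNA sum varied widely between IP libraries. It was 8.31, 135.6 and 21.2 CPM in IP naive and 11.3, 48.5 and 15.7 in IP injured, with library 2 highest in both groups. Input libraries had 760.8, 526.1 and 636.1 CPM in naive and 700.0, 212.5 and 502.4 in injured ganglia, all above every IP library. The fall was 11.4-fold in naive (-3.51 ± 0.94, adjusted p = 0.0279) and 18.2-fold in injured ganglia (-4.18 ± 0.97, adjusted p = 0.0088). Robust dispersion estimates, tried after these calls were seen, ended the naive call (adjusted p = 0.0666). So did a fit of only the 2 groups compared (0.0591) and leaving out IP naive library 1 (0.0567) or 3 (0.101) or input naive library 1 (0.064), 2 (0.0558) or 3 (0.07). Leaving out IP injured library 3 ended the injured call (adjusted p = 0.059). Without library 2 of the IP group compared, the fall was larger, at -5.46 ± 0.81 in naive (adjusted p = 0.00113) and -5.15 ± 1.12 in injured ganglia (adjusted p = 0.0102).

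**Figure D3:**
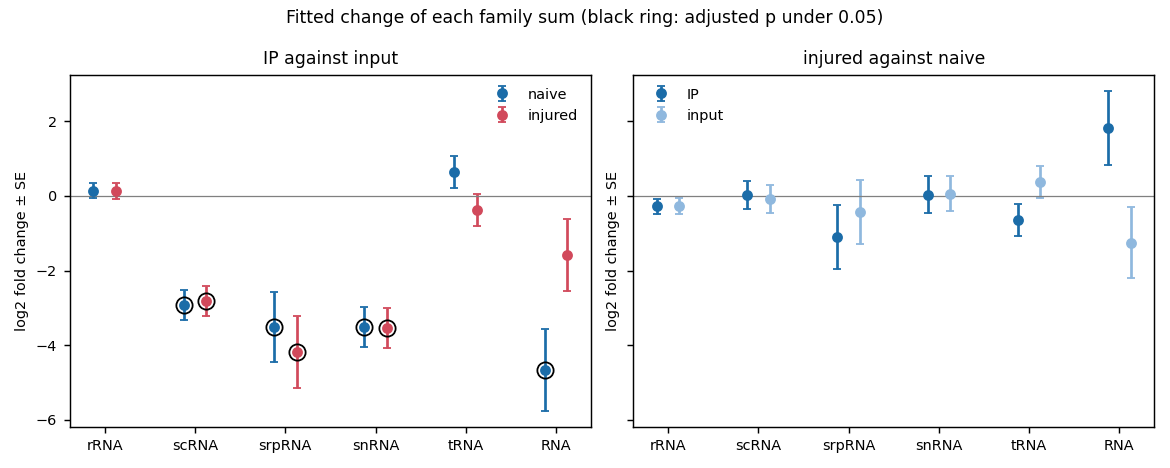
Fitted log2 change of each family sum (points) with its standard error (bars) in IP against input and in injured against naive, with a black ring where the adjusted p was under 0.05. Rings appear in the IP against input comparisons for scRNA, snRNA and srpRNA, and for RNA in naive ganglia.

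The family named RNA, which is 7SK, was 0.95, 1.79 and 0.324 CPM in IP naive against 10.9, 21.6 and 43.4 in input naive. In injured ganglia it was 0.179, 6.0 and 4.12 CPM in IP and 5.86, 10.3 and 15.6 in input. The naive groups did not overlap and differed 25.2-fold (-4.66 ± 1.10, adjusted p = 0.0175). The injured groups overlapped and the difference did not pass the test (-1.58 ± 0.96, adjusted p = 0.299). The naive call was lost without IP naive library 1 (adjusted p = 0.0567) or 3 (0.0708) or input naive library 3 (0.065, log2 -3.99), and the difference was -5.39 without IP naive library 2 (adjusted p = 0.0211). A direct test of the difference between conditions gave 3.08 ± 1.38 with an unadjusted p of 0.0458 and an adjusted p of 0.714.

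The tRNA family did not differ detectably. Its sum was 21.4, 10.3 and 19.3 CPM in IP naive and 16.03, 6.90 and 10.3 in input naive, with overlap (0.64 ± 0.43, adjusted p = 0.338). Injured ganglia had 11.9, 9.84 and 10.3 CPM in IP and 11.1, 23.0 and 9.25 in input (-0.38 ± 0.43, adjusted p = 0.589). The sign of these values depended on a few sites, since it turned in naive ganglia without the most abundant site (-0.21).

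At single sites the same families carried the calls. Of 397 structural RNA sites that passed the filter on low counts, 53 were lower and 0 higher in IP in naive ganglia, where 4.27% of all 46229 sites were called, 2.77% lower and 1.49% higher. In injured ganglia 52 were lower and 1 higher, against 5% of all sites called, 2.49% lower and 2.5% higher. Single libraries moved these counts: the naive count was 7 without IP naive library 1, 9 without library 3 and 80, of which 18 were higher in IP, without library 2, and the injured count was 1 without IP injured library 1 and 4 without library 3. Without input naive libraries 1 to 3 the naive count was 31, 18 and 17, and without input injured libraries 1 to 3 it was 33, 35 and 35. The injured count was 25, 25 and 10 without input injured libraries 1 to 3. The shares of all sites called in these fits are not given here. The naive calls were 37 of 242 scRNA, 8 of 21 snRNA, all 3 srpRNA, 1 of 10 RNA and 4 of 25 joined sites. The injured calls that were lower were 38 scRNA, 7 snRNA, 3 srpRNA and 4 joined sites. Called lower in both conditions were 37 sites, 69.8% of the naive and 71.2% of the injured list, and both lists come from 1 fit. Sites could pass the filter through their input level alone, so these counts describe the tested sites and not all members.

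**Figure D4:**
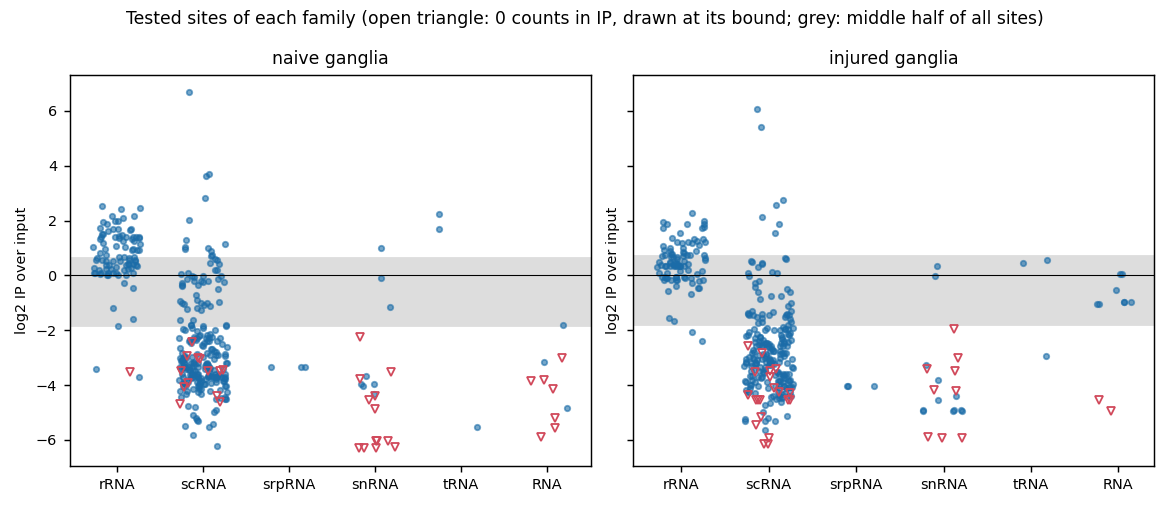
Fitted log2 difference between IP and input (axis) at each tested site of the structural RNA families in naive and injured ganglia, grouped by family. Open triangles are sites with 0 counts in all IP libraries, drawn at their bound, and the grey band spans the quartiles of all tested sites. The scRNA sites lie mostly below 0, with medians of -3.20 and -3.04, and the rRNA sites mostly above 0, with medians of 0.67 and 0.45.

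Many sites could not be counted as separate loci. Among sites with at least 50 counts, 41 fell into 15 sets of near-equal counts at different genomic positions. A pair was joined where its absolute differences, summed over the 12 libraries, came to at most 2% of its mean total. All 3 tested srpRNA sites formed such a set. They lie in Rn7s2 (chr12:69361300-69361341, minus strand), in Rn7s1 (chr12:69159443-69159474, plus strand) and within the immunoglobulin kappa region (chr6:69516487-69516517, plus strand), and held 14528, 14525 and 14460 counts. The site in Rn7s2 had 46, 581 and 131 counts in IP naive, 63, 202 and 97 in IP injured, 2548, 2476 and 2672 in input naive and 2430, 957 and 2325 in input injured. Its log2 difference was -3.35 ± 0.82 in naive (adjusted p = 0.0381) and -4.04 ± 0.86 in injured ganglia (adjusted p = 0.0197), and the call was lost in 9 and 4 of 20 alternatives. The srpRNA result thus rests on 1 signal that the table places at 3 positions. Of 22 snRNA sites with at least 50 counts, 8 fell into 3 such sets, as did 20 of 268 scRNA sites into 7. The counts of called snRNA and scRNA sites can thus hold 1 signal more than once.

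The most abundant scRNA site lay outside annotated genes on chromosome 4 (chr4:101819940-101819974, minus strand, 7357 counts). It measured 4.93, 16.9 and 4.64 CPM in IP naive and 58.3, 129.8 and 95.4 in input naive, and 4.60, 14.3 and 3.75 in IP injured and 68.1, 71.9 and 96.9 in input injured. The groups were apart, with -3.20 ± 0.55 (adjusted p = 0.00874) and -3.19 ± 0.55 (adjusted p = 0.00855). Library 2 was again the highest of each IP group. The next scRNA sites by count had 3856 and 3700 counts. The first lay within the span of Jcad, a junction protein gene of the endothelium whose strand was not resolved here (chr18:4614627-4614652). The other lay on the strand opposite to Pithd1 (chr4:135980123-135980148). Both were called in both conditions, at -3.79 and -3.47 for the site at Jcad and at -3.60 and -3.71 for that opposite to Pithd1. The Jcad call was lost in 2 naive and 3 injured alternatives (adjusted p up to 0.095) and the Pithd1 call in 4 and 3 (up to 0.124), all of them fits without 1 IP or input library numbered 1 or 3, or, once, without input naive library 2. That of the chromosome 4 site above was lost only without IP injured library 1 (adjusted p = 0.0545).

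Among the largest falls, a site on chromosome 13 (chr13:96743573-96743598, minus strand) had 4, 2 and 0 counts in IP naive, 1, 3 and 2 in IP injured, 30, 143 and 97 in input naive and 40, 83 and 133 in input injured. It was lower by -5.42 ± 1.13 (adjusted p = 0.0206) and -5.31 ± 1.13 (adjusted p = 0.0197). The naive call was lost in 5 alternatives (adjusted p up to 0.0696), namely the fit of 2 groups and leaving out IP naive library 1 or 3 or input naive library 2 or 3. The injured call was lost in 4 (adjusted p up to 0.115), without IP injured library 1 or 3 or input injured library 2 or 3. In injured IP libraries a neighbouring pair of sites in Abcb11, the bile salt export pump gene (chr2:69239883-69239908 and chr2:69239931-69239956), had 0 counts. Against a floor of 3 counts over the group they were at least 70.7-fold and 70.3-fold lower than in input (adjusted p = 0.0190 and 0.0171). Their input injured counts were 34, 39 and 128 for the one and 34, 38 and 128 for the other. Both calls were lost without IP injured library 1 or 3 or input injured library 3 (adjusted p up to 0.0873 and 0.0803). In naive ganglia neither passed the test, with 4 counts in IP against 79 in input (adjusted p = 0.113) and 3 against 76 (adjusted p = 0.0895). This near-equal pair was 1 of 7 such sets in the family.

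The scRNA family was mostly made of copies outside the genes that bear its names. The annotated Rny3 gene, which encodes a Y RNA, held 1 site with 93 counts (chr6:47781664-47781689), and the pseudogene Bc1-ps1 held 1 with 40 counts. The Rny3 site had 0, 10 and 0 counts in IP naive, 0, 0 and 14 in IP injured, 7, 5 and 13 in input naive and 43, 1 and 0 in input injured, with overlap. In naive ganglia 173 of 242 tested scRNA sites had every IP library below every input library, and 185 did in injured ganglia. The same held for 19.1% and 23.1% of all tested sites. Sites could pass the filter through their input level alone, so these counts describe the tested sites and not the family. Of the 242, 13 in naive and 20 in injured ganglia had 0 counts in every IP library compared.

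The snRNA sites split by whether they lay in a structural RNA gene. The 56 sites in annotated genes of this kind held 346 counts over the 6 IP libraries and 7988 over the 6 input libraries. The 14 sites outside them held 583 in IP and 531 in input. These sums are not scaled for depth, and IP libraries had 12500443 to 18687123 counts against 10045178 to 14053174 in input. The small excess of IP outside these genes is thus not a higher level. Most counts of the 14 sites came from a site 4066 bp upstream of the 3′ end of Rabepk (chr2:34778675-34778700, minus strand, 962 counts). It had 61, 62 and 130 counts in IP naive, 138, 26 and 85 in IP injured, 5, 196 and 70 in input naive and 23, 122 and 44 in input injured. These groups overlapped and the fitted differences were -0.08 ± 0.93 and 0.34 ± 0.93 (adjusted p = 0.984 and 0.876).

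The highest snRNA site lay in Snord13, the gene of the U13 RNA, a small nucleolar RNA of rRNA maturation (chr8:31149875-31149900, minus strand, 1344 counts). It had 1, 19 and 25 counts in IP naive, 5, 27 and 10 in IP injured, 219, 171 and 283 in input naive and 213, 157 and 214 in input injured. Every IP library was below every input library, with -4.04 ± 0.90 (adjusted p = 0.0263) and -3.81 ± 0.89 (adjusted p = 0.0293). The call was lost in 5 of 20 alternatives in each condition, with adjusted p up to 0.0772 in naive and 0.146 in injured ganglia. In naive ganglia these were the fit of 2 groups and leaving out library 1 or 3 of IP or input, and in injured ganglia leaving out IP library 1 or 3 or any input library.

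On chromosome 11, sites in Rnu2-10, a gene of the spliceosomal U2 RNA (chr11:101658308-101658334), in Gm24950 (chr11:101641818-101641844) and in LOC115487916, within Rdm1 (chr11:101627436-101627462), had identical counts in all 12 libraries. Each had 0 counts in every IP naive library, 2, 3 and 8 in IP injured, 56, 29 and 131 in input naive and 108, 96 and 166 in input injured. They were at least 78.5-fold lower in IP in naive ganglia (adjusted p = 0.00651) and lower by a log2 difference of -4.91 ± 0.96 in injured ganglia (adjusted p = 0.0181). The naive call was lost with only the 2 groups compared (adjusted p = 0.0513), and the injured call without library 1 or 3 of either group (up to 0.102). A neighbouring site in Rnu2-10 (chr11:101658380-101658405, 746 counts) had 0, 19 and 0 counts in IP naive and 24, 8 and 0 in IP injured. In input it had 91, 111 and 204 in naive and 110, 36 and 143 in injured ganglia, and although the groups were apart it did not pass the test (adjusted p = 0.131 and 0.214).

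Of the 52 tRNA sites, 31 lay in annotated tRNA genes and held 394 counts in all, with 13 sites at 0 and at most 44 counts at 1 site. They held 64 counts in IP and 330 in input. Sites in n-TGtcc1, n-TGtcc2, n-TGtcc4, n-TGtcc5, n-TGtcc6 and n-TGtcc7 each had 5 counts in IP naive library 3 and 10 and 9 in input naive libraries 1 and 2. Those in n-TEctc5, n-TEctc7 and n-TEctc8 were also equal, with 22 of 36 counts in input injured library 2. All 25 counts in n-TLcag10 came from IP naive library 3. Near-equal sets were sought only at 50 counts or more, so such signals enter these sums once per copy. The 21 sites outside tRNA genes held 1301 in IP and 616 in input, mostly at 2 sites. These sums are not scaled for the greater depth of the IP libraries. The site in Champ1, a gene for a zinc finger protein of chromosome alignment, lay 931 bp upstream of its 3′ end (chr8:13880683-13880708). Its level was 13.1, 7.31 and 8.69 CPM in IP naive and 2.49, 0.640 and 4.20 in input naive, apart but not called (2.24 ± 0.70, adjusted p = 0.0853). In injured ganglia it was 6.69, 4.16 and 4.39 CPM in IP and 4.61, 5.93 and 2.82 in input, with overlap. The second, 184 bp upstream of the 3′ end of 2610301B20Rik (chr4:10899216-10899241, 764 counts), overlapped between IP and input in both conditions (adjusted p = 0.188 and 0.690).

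Rn7sk, the annotated 7SK gene on chromosome 9, held 4 of the 11 sites named RNA, with 616 counts. The largest (chr9:78175480-78175505, minus strand, 240 counts) had 0 counts in all IP naive libraries, 0, 17 and 19 in IP injured, 17, 26 and 87 in input naive and 13, 21 and 40 in input injured. It was at least 47.2-fold lower in IP in naive ganglia (adjusted p = 0.0437) and overlapped in injured ganglia (adjusted p = 0.728). The naive call was lost in 14 of 20 alternatives. The next site (chr9:78175413-78175442) had 0, 0 and 6 counts in IP naive, 3, 7 and 9 in IP injured, 0, 57 and 108 in input naive and 11, 13 and 1 in input injured. These groups overlapped. The remaining sites in Rn7sk had 88 and 73 counts, and neither was called.

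**Figure D5:**
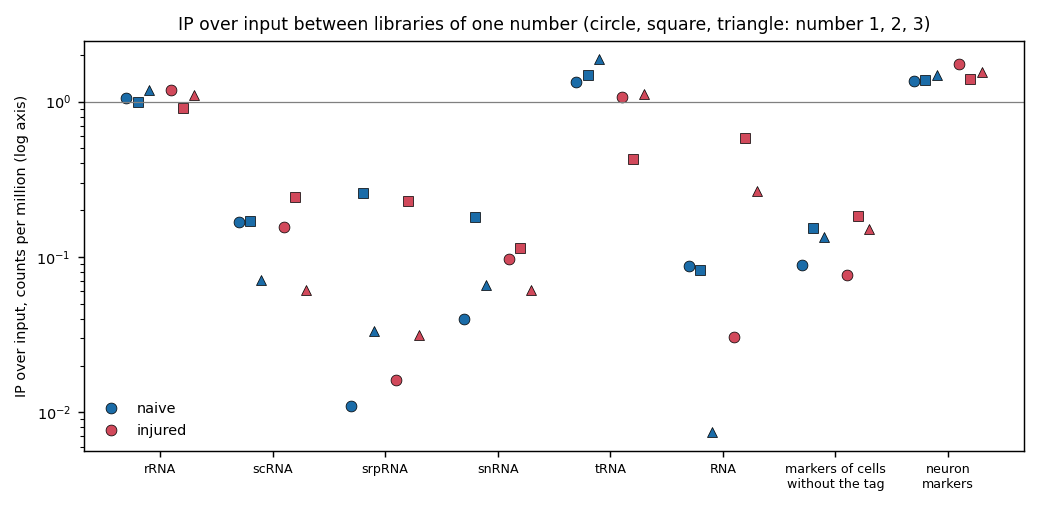
Ratio of IP to input (log axis) between libraries of the same number for each family and, as a median over genes, for the markers of neurons and of cells without the tag, with circle, square and triangle for number 1, 2 and 3, in naive and injured ganglia. Equal numbers are used only to arrange the points. The ratios of scRNA, srpRNA and snRNA lie below 1 in all 6 cases, and those of srpRNA are highest for number 2.

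No structural RNA family passed the test for the crush injury. The background was 0 of 180 families in IP and 0.556% in input. The rRNA sum changed by -0.28 ± 0.20 in IP (adjusted p = 0.884) and by -0.27 ± 0.20 in input (adjusted p = 0.695). Its mean share was 10.1% ± 2.00 (SD, n = 3) in IP injured and 12.5% ± 2.48 in IP naive, and 9.44% ± 1.43 in input injured and 11.5% ± 1.24 in input naive. The groups overlapped, and exact two-sided permutation tests gave p = 0.3 and p = 0.2, where 0.1 is the smallest these samples allow. Between libraries of the same number, injured over naive was 0.81, 0.81 and 0.81 in IP and 0.72, 0.88 and 0.87 in input. Whether equal numbers share a pool is not stated. Over all alternative family fits, a replicate block among them, the adjusted p was at least 0.206 in IP and 0.0787 in input.

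The other families moved by less than their errors allowed to call. In IP the change was 0.02 for scRNA, 0.04 for snRNA, -1.10 for srpRNA, -0.64 for tRNA and 1.82 ± 1.00 for RNA (adjusted p = 0.640). In input it was -0.09, 0.06, -0.43, 0.38 and -1.25. No difference between the injury effects in IP and input passed the test in any family, where 0 of 180 families did. At single sites 0 of 397 were called for injury in IP, in input or in the difference between them, where 0.27%, 0.195% and 0% of all sites were. All injured libraries lay below all naive ones at 11 of 93 rRNA sites in IP and 10 in input, and above them at 1 and 2. Over all sites the shares were 4.49% and 5.44% below and 8.92% and 10.8% above. An unadjusted p under 0.05 was found at 39, 14 and 25 of the 397 structural RNA sites (9.82%, 3.53% and 6.3%), beside 9.21%, 9.15% and 5.16% of all sites. The families differed: for injury in IP it was 7.53% of rRNA, 5.79% of scRNA, 47.6% of 21 snRNA and 70% of 10 RNA sites. In input it was 0% of snRNA and RNA sites, and for the difference 28.6% and 50%. Of these snRNA and RNA sites, 13 and 7 had 0 counts in every IP naive library. DESeq2 called 2 structural RNA sites in IP and 2 in input. Counts were simulated on these libraries for the injury comparison in IP. The fit on sites recovered 7% of 4-fold and 0% of 2-fold changes, and the fit on families 40% and 10%, so changes of this size could be missed. The changed units were drawn at random from all tested sites or families, so the shares need not hold for a given family. The family shares rest on 10 changed families for each fold. Every unit was given its mean level over all 12 libraries, so the lower IP levels of scRNA, snRNA and srpRNA were not simulated. Recovery at those levels was not measured. Standard errors for injury in IP ran from 0.20 for rRNA to 1.00 for RNA.

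Genes for the proteins that make, bind or destroy these RNAs were also examined. Of 129 listed genes 102 were tested, 19 of RNA polymerase I and rRNA processing, 8 of the signal recognition particle, 5 of the 7SK particle, 24 of spliceosomal proteins, 27 of RNA polymerase III and tRNA maturation and 19 of the nuclear exosome. None was called for injury in IP or input, where 1.53% and 1.18% of 11402 genes were called. Between IP and input 1 was called in each condition, against 6.94% and 5.9% of all genes (4.97% and 4% lower, 1.96% and 1.9% higher). It was Polr3g, a subunit of RNA polymerase III, which was higher in IP by 0.99 ± 0.21 in naive (adjusted p = 0.00487) and by 1.03 ± 0.21 in injured ganglia (adjusted p = 0.00397). The medians of all 102 genes were 0.01 and 0.07, beside -0.02 and 0.01 over all genes tested. Protein genes of the signal recognition particle had medians of 0.22 and 0.24 with none of 8 called. The 7SL RNA of this particle was lower in IP, a call lost in 7 naive and 1 injured of 25 alternatives. Gene sums and reads at repeat sites are unlike measures from different fits, and no test compared them.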

How the data were processed

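Raw counts per genomic interval (site) and library were used as the authors deposited them, without normalization, and a count is a number of reads in that interval. Per the submitters' processing notes the tools were HTSeq, STAR and bcl2fastq 2.17 and the builds mm10 and GRCm38, with no role given for each. The calling of sites and the treatment of reads that align to several places are not given in the sources used here. Per the labels, RNA was purified with a column kit and made into QuantSeq REV libraries, which are primed on poly(A). Of 178451 lines, 20 were damaged and left out, and 17 columns without a name were not used. The table comes in 2 blocks, and the first was read as the minus and the second as the plus strand from their position at RefSeq gene ends. Positions are printed as deposited, and whether they start from 0 or 1 is not stated.

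Counts were fitted with edgeR 4.0.16 in R 4.3.3 (TMM, filterByExpr, quasi-likelihood test with default settings, 1 mean per group, all 12 libraries). Units were sites (46229 tested), sums per family name (180) and sums per gene (11402). The tests were two-sided, with Benjamini-Hochberg adjustment over every unit of a fit and a threshold of 0.05. Levels are in CPM, computed from the deposited counts and the library total. Fitted log2 differences use the TMM factors of their own fit, so they can differ from ratios of CPM and between fits. Shares of counts were compared by an exact two-sided permutation test, whose p cannot fall under 0.1, in 24 tests of which the lowest adjusted p was 0.343. Folds against a group at 0 use a floor of 3 counts over the group, and floors cover counting error only. Named sites are the 3 most abundant of each family, the 5 largest called rises and falls of each comparison, and those in annotated structural RNA genes. Members and gene lists were chosen with earlier results of these data known. Each fit was tested on simulated data. Alternatives included DESeq2 1.42.0, other size factors, no filter, left-out libraries and a replicate block. Dispersion estimates with robust weights were added after the calls of the default fit had been seen.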

Additional observations from a re-analysis of the deposited data

How the results depend on the processing

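The scRNA and snRNA falls in IP kept their direction and call under every one of the 25 alternatives, and none of the 31 called results of named sites reversed. Many lost their call: 21 without input injured library 3, 20 without IP injured library 3, 17 without IP injured library 1, 15 without input injured library 1, 10 of 30 with only the 2 groups compared, and 0 to 11 under each other alternative. The naive srpRNA call was lost with robust dispersion estimates (-3.51) and with only the 2 groups compared (-3.59). Uncalled values near 0 changed sign. For scRNA in IP after injury they were -0.02 with RLE size factors and with DESeq2, -0.008 with library sizes from sites outside the structural RNAs, -0.048 without the IP libraries numbered 2 and -0.046 with the size factors of the site fit. For injury in input, snRNA was -0.061 with outside library sizes and -0.064 with near-equal sites entered once, and tRNA was -0.043 with joined names added. For tRNA, IP against input was -0.206 in naive ganglia without the top site and 0.073 in injured ganglia with joined names. The difference between injury effects for rRNA was 0.116 with outside library sizes, 0.034 without the top site and 0.025 with near-equal sites once. For snRNA it was 0.12 with outside sizes, 0.072 with near-equal sites once and 0.472 without the IP libraries numbered 2, where it was -0.003 for scRNA and 0.276 for srpRNA. Without the top site, the share difference in naive ganglia was -390.4 CPM for srpRNA and -1.354 for tRNA. The causes were not tested.

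Counts of called sites depended more on the setting. For injury they were 7 in IP and 7 in input with no filter and 2 and 2 with DESeq2. For IP against input in naive and injured ganglia they were 84 and 87 with no filter and 152 and 142 with DESeq2. Without the IP libraries numbered 2 they were 88 and 82, and with only the 2 groups compared 19 in naive ganglia. With no filter 676 scRNA and 154 rRNA sites were tested, beside 242 and 93 in the main fit. The shares of all sites called under these settings are not given here, so a gain particular to structural RNA cannot be read from them. Partner gene calls with outside library sizes were 2 for injury in input, 10 in naive and 28 in injured IP against input, a scaling that moved the median of all genes from -0.02 to 0.29 and from 0.01 to 0.55. They were 3 with DESeq2 in naive ganglia, and 2 in injured ganglia with only the groups compared.

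Leaving out 1 library gave, for injury in IP, -0.434 to 0.388 for scRNA, -2.01 to 0.752 for srpRNA, -0.379 to 0.435 for snRNA and 0 to 1 called sites. For injury in input it gave -0.337 to 0.121 for scRNA, -0.76 to 0.036 for srpRNA and -0.203 to 0.52 for snRNA. For IP against input in naive ganglia it gave -0.098 to 0.207 for rRNA, -5.457 to -2.989 for srpRNA, -5.389 to -3.989 for RNA and 7 to 80 sites. In injured ganglia it gave -0.156 to 0.215 for rRNA, -5.151 to -3.935 for srpRNA, -0.697 to 0.006 for tRNA, 1 to 71 sites and 1 to 2 partner genes. For the difference between injury effects it gave -0.249 to 0.151 for rRNA, -0.389 to 0.432 for scRNA, -1.611 to 1.15 for srpRNA and -0.559 to 0.339 for snRNA.

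The labels number the replicates of each group but do not say that equal numbers share a pool. Over 11402 genes, deviations of same-numbered libraries correlated by -0.027 to 0.103, with -0.027 the only negative value. Those of differently numbered libraries correlated by -0.102 to 0.02. These correlations were not tested and do not settle the pairing. With a replicate block no family call changed (scRNA -2.95 in naive and -2.89 in injured ganglia), called sites were 54 and 58, and 3 partner genes were called in injured ganglia. In that fit rRNA in IP against input was 0.126 ± 0.065 in both conditions (adjusted p = 0.225 in naive and 0.210 in injured ganglia). Low counts limit the 7SK, tRNA and many snRNA sites, and sites with near-equal counts cannot be told apart.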
